A study of Mus musculus with 661 samples.

Results

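The genes described here make sterols and fatty acids or control the genes that do, and they were chosen by symbol from the count table: 31 of its 45808 genes. They were kept as separate lists: 17 enzymes of sterol synthesis, 10 enzymes of fatty acid synthesis and 4 regulators. All 31 were found in the table. The data are plate-based, full-length single-cell RNA libraries of 661 stromal cells sorted from the endosteum and the central marrow of young and old mice. All mice were untreated wild-type C57BL/6 of both sexes. The labels give the age only as young or old; by the article's description of its cohorts this is about 2 months and, for most old mice, about 24 months, and the age of the mice of single cells was not available. All sorts were negative for Ter119 and CD45, and the mesenchymal ones also for CD31. The endosteal sorts were MSC-S (positive for Sca-1 and CD51), mOPr (without Sca-1, with CD51 and PDGFRα, without LepR), OPr (the same without PDGFRα) and AEC (positive for CD31, high Sca-1, low CD105). The central marrow sorts were MSC-L (without Sca-1, with CD51, PDGFRα and LepR) and SEC (positive for CD31, low Sca-1, high CD105). The article names 3 young and 4 old mice for these populations, but the labels do not name the mouse of a cell or say how mice were pooled, so each population and age counts as 1 sample.

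Sterol synthesis starts from acetyl units, passes through mevalonate and farnesyl diphosphate to squalene, closes the rings at lanosterol and ends, after a chain of demethylations, reductions and double bond shifts, at cholesterol. Fatty acid synthesis starts from citrate cut in the cytosol, goes through malonyl units to palmitate and then to longer and less saturated chains. The transcription factors SREBP-2 and SREBP-1 drive the genes of these pathways when membrane sterol is low, and Insig proteins hold the factors back in the endoplasmic reticulum when it is high.

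Total counts per cell ran from 58034 to 1503374 with a median of 425611. By group the median total was 468565 in 53 young MSC-L cells and 357288 in 58 old ones, 608696 in 59 young MSC-S cells and 703594 in 59 old ones, and 695499 in 44 young OPr cells and 781968 in 29 old ones. It was 524175.5 in 26 young mOPr cells and 451629.5 in 26 old ones, 417873 in 84 young AEC cells and 424025.5 in 82 old ones, and 319565 in 70 young SEC cells and 306315 in 71 old ones. Levels are CPM, the summed nuclear counts of a group scaled to equal totals, and every interval covers counting error only, not the spread between mice. Cells are not replicates of an age or a population, so no difference was tested. A ratio past 2-fold is a description, and every alternative means each one that gave a value for the gene. Library numbers fall into 3 ranges with 170, 303 and 188 cells. The mesenchymal sorts lie in ranges 1 and 2, AEC cells in all 3, and all SEC cells in range 3, so SEC values have no second range.

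The sorted labels were checked against markers. All 6 MSC-L markers were present in MSC-L cells, with Cxcl12, a chemokine of the marrow stroma, on top and a summed level of 57360 CPM in young and 47105 CPM in old cells. All 6 MSC-S markers were present in MSC-S cells (3081 CPM young, 3464 CPM old, top gene Ly6a), and all 10 endothelial markers in AEC (11783 and 11738 CPM) and SEC cells (9374 and 10936 CPM). The markers of the OPr label differed between the 2 ages. In young OPr all 6 cartilage markers were present with a sum of 38421 CPM, most of it Col2a1, the main collagen of cartilage, at 23589 CPM; in old OPr the sum was 2384 CPM with Comp on top. In old OPr all 15 hematopoietic markers were present with a sum of 11552 CPM (top gene S100a9, a granulocyte protein, 4041 CPM), against 25.0 CPM in young OPr, where only Lcp1 reached 10 CPM and Cd52 and Csf3r were at 0. At least 7 of the 15 were carried by 8 of the 29 old OPr cells. MSC-L markers summed to 5589 CPM in young and 22695 CPM in old OPr, and to 998 CPM in young and 21133 CPM in old mOPr. The part of these differences in the results below was not tested.

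Detection sets the first limit. A cell carries a gene here at 10 CPM or more, and no sterol enzyme was carried by 90 of the 661 cells, while no fatty acid enzyme was carried by 19. Acly, which cleaves citrate to acetyl-CoA, was carried by 60.97 percent of all cells and Elovl5, an elongase of polyunsaturated chains, by 55.7 percent. Among sterol enzymes the most often carried was Hmgcs1, which makes HMG-CoA, at 32.8 percent. Counts also came in few cells: of 371 pairs of a member and a group with any count, 75 had over 50 percent of the counts in 1 cell. These were 55 of 203 pairs for sterol enzymes, 18 of 120 for fatty acid enzymes and 2 of 48 for regulators. A sterol ratio therefore often rests on a handful of cells, and alternatives without the highest cell are given where they matter.

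Per kilobase of exon and over all cells, Elovl5 (27.02 CPM per kb) and Acly (26.02 CPM per kb) had the highest levels of the 31, followed by Ebp, the sterol isomerase, at 20.2 CPM per kb and Pmvk, phosphomevalonate kinase, at 18.6 CPM per kb. The lowest were Fdps, farnesyl diphosphate synthase, at 0.466 CPM per kb and Idi1, the isopentenyl diphosphate isomerase, at 0.599 CPM per kb. These enzymes stand next to each other in the pathway, between genes with more counts. Of their transcript stretches of 50 bases, 86.4 percent for Fdps and 30.5 percent for Idi1 also occur in a transcript of another gene, so their reads may be left uncounted or counted for the other gene, and their levels carry this limit. For Fdps the genes sharing sequence held few counts too, 3.70 CPM for Gm3571 and 1.67 CPM for Gm5873. Shared stretches also made up 52.6 percent of Acaca, 30.7 percent of Fdft1, 13.6 percent of Hmgcs1 and 13.1 percent of Scap. All other members shared under 5 percent. Of the genes sharing sequence with Fdft1, Ctsb held 1439 CPM and Gm6781 4.11 CPM.

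The summed level of the 17 sterol enzymes was highest in young OPr, 1051 CPM (95 percent counting interval 1039 to 1063). In young cells of the other populations it was 353 CPM in MSC-L, 356 CPM in MSC-S, 369.7 CPM in mOPr, 278 CPM in AEC and 191 CPM in SEC. In old cells the sum was 467 CPM in MSC-L, 399 CPM in MSC-S, 561 CPM in OPr, 523 CPM in mOPr, 288 CPM in AEC and 293 CPM in SEC. By these sums old cells were above young ones in 5 of 6 populations and below them in OPr, and mesenchymal groups were above endothelial groups at each age. Sums can rest on few cells: 19.01 percent of the young OPr sterol counts and 15.5 percent of the old MSC-S ones were in 1 cell. The median over cells was 390.4 CPM in young OPr, under the 497 CPM of old OPr and the 513 CPM of old mOPr, and it went from 320.1 to 266 CPM with age in MSC-S and from 189.7 to 184 CPM in AEC, so the direction of these 3 populations differs between sum and median. The 10 fatty acid enzymes also peaked in young OPr, at 1199 CPM against 557 CPM in old OPr. Their sums, young then old, were 448 and 574 CPM in MSC-L, 647 and 733 CPM in MSC-S, 430.3 and 587 CPM in mOPr, 618 and 760.2 CPM in AEC, and 627 and 754 CPM in SEC. For this list the endothelial sums lay between the mesenchymal ones in young cells and above them in old cells. The 4 regulators summed to 410.4 CPM in young OPr and to between 135 CPM (young SEC) and 265 CPM (old OPr) elsewhere.

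**Figure D1:**
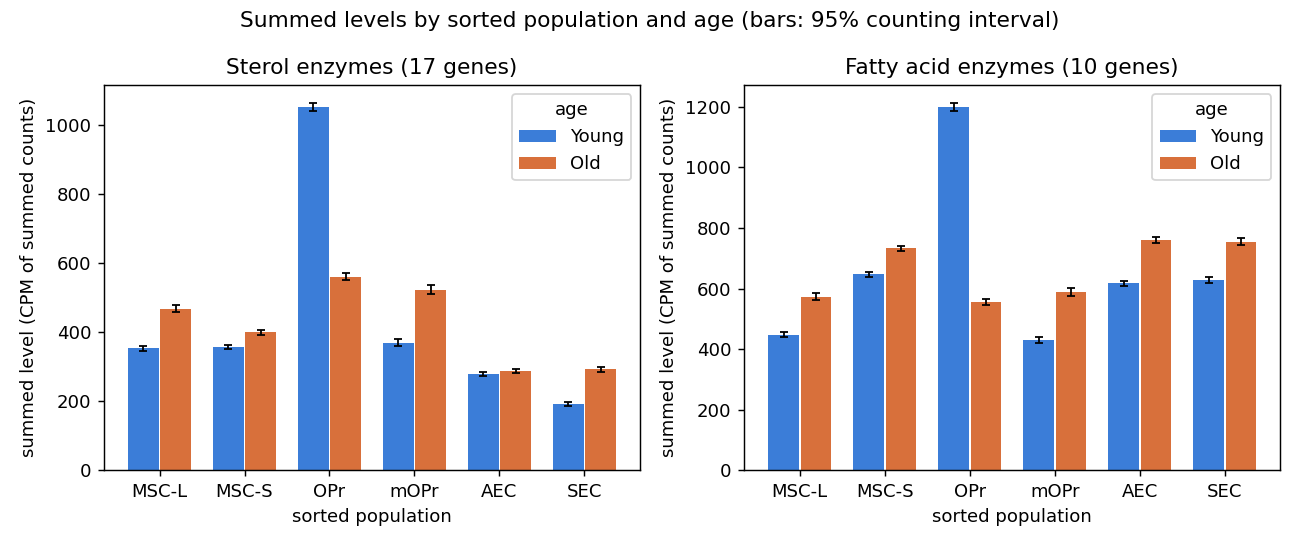
Summed CPM (vertical axes) of the 17 sterol enzymes and the 10 fatty acid enzymes in each sorted population, young and old, 1 summed sample per bar, with 95 percent counting intervals. Young OPr stands highest in both panels, at 1051 and 1199 CPM, and young SEC is lowest for sterol enzymes, at 191 CPM.

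Gene by gene, young OPr was the highest of the 12 groups for 8 of 17 sterol enzymes, 6 of 10 fatty acid enzymes and 2 of 4 regulators. Among mevalonate enzymes these were Hmgcs1, with 22.7 CPM in its lowest group, a median of 45.8 CPM and 199 CPM in young OPr, Pmvk (13.8, 29.8 and 60.1 CPM) and Fdps (1.06, 1.77 and 3.58 CPM). Of the steps to squalene and its epoxide they were Fdft1, squalene synthase (8.77, 15.2 and 44.8 CPM), and Sqle, squalene epoxidase (1.55, 10.1 and 73.9 CPM). After lanosterol they were Cyp51, the 14-alpha demethylase (4.83, 28.5 and 234 CPM), Msmo1, the C4 methyl oxidase (9.21, 28.3 and 148 CPM), and Hsd17b7, the 3-keto reductase (0.516, 21.8 and 80.1 CPM). These 8 lie at early, middle and late steps. The share of all genes highest in young OPr is not given here, so the counts describe the members only. The other sterol enzymes peaked elsewhere: Mvk, mevalonate kinase, Lss, which forms lanosterol, Tm7sf2, a C14 reductase, and Dhcr7, the last reductase of the Kandutsch-Russell branch, in old OPr, and Mvd, the decarboxylase of the mevalonate arm, Nsdhl, a C4 decarboxylase, and Sc5d, the C5 desaturase, in old MSC-L. Idi1 peaked in young mOPr at 6.44 CPM and Ebp in old mOPr at 97.1 CPM. For Lss the lead of old over young OPr was small, with a log2 ratio of 0.05.

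Sterol enzymes in young OPr were highest in the cells of cluster M3. The clusters were built by the authors on all genes of these cells, so what follows on clusters is a description. M3 holds 16 cells, 15 young OPr and 1 old OPr, with a median total count of 701566.5, and 3 of them lie in library range 1 and 13 in range 2. The sterol enzymes summed to 2231 CPM in M3 (2203 to 2260), the fatty acid enzymes to 1843 CPM and the regulators to 628 CPM. In single M3 cells the sterol sum ran from 274 CPM through a median of 1632 CPM to 6271 CPM, against a median of 227 CPM in the 645 cells outside M3. An M3 cell carried 11 of the 17 sterol enzymes at the median, from 4 to 15, and a cell outside M3 carried 2. Thinned to 100000 counts, without the 7 cells shallower than this, the median was 12 in M3 and 2 outside M3. The difference is thus also there at equal total counts. The 3 range-1 cells of M3 had sterol sums of 962 to 2243 CPM, median 1571 CPM, beside a median of 1694 CPM in the 13 range-2 cells, so the high sums occur in both ranges. The 29 young OPr cells outside M3 still had sums of 848 CPM for fatty acid enzymes and 294 CPM for regulators, above every other group of population and age, and of 409 CPM for sterol enzymes, above the other young populations but below old MSC-L, OPr and mOPr. Of the sterol counts in these 29 cells 37.3 percent were in 1 cell, of the regulator counts 26.9 percent and of the fatty acid counts 17.2 percent. Their medians over cells were 118 CPM for regulators, below the 211 CPM of young mOPr, and 558 CPM for fatty acid enzymes, below the 630 CPM of old AEC.

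**Figure D2:**
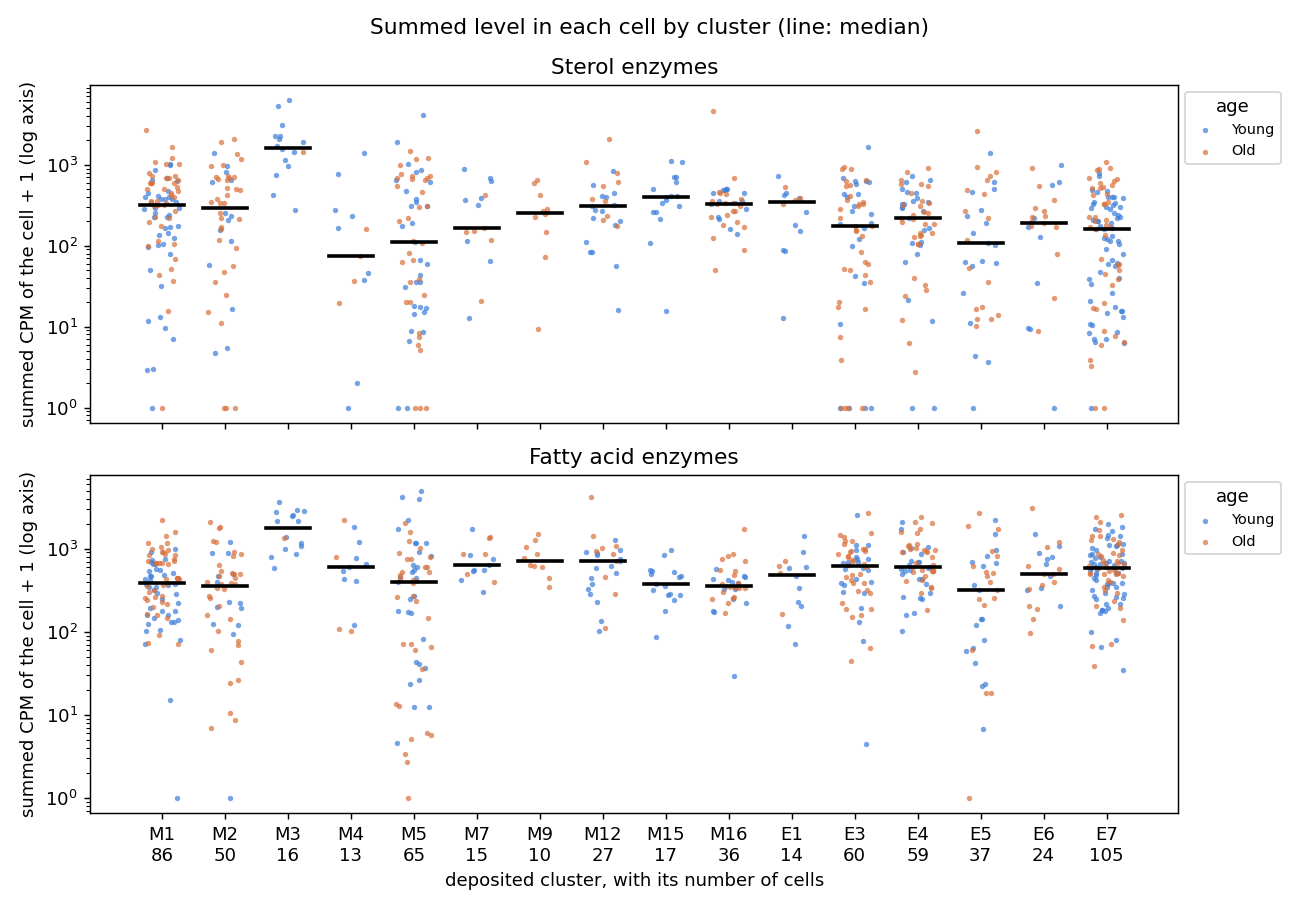
Summed CPM plus 1 of the sterol enzymes (top) and fatty acid enzymes (bottom) in every cell, on log axes, by deposited cluster of at least 10 cells; points are cells colored by age and lines are medians. M3 has medians of 1632 and 1763 CPM, and for sterol enzymes its line stands far above that of every other cluster.

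Among the 16 clusters with at least 10 cells, M3 had the highest level of 13 of 17 sterol enzymes, all but Mvk, Tm7sf2, Nsdhl and Ebp. Over 80 percent of M3 cells carried 7 of them, namely Hmgcs1, Pmvk, Fdft1, Cyp51, Msmo1, Hsd17b7 and Sc5d, and no sterol enzyme reached that share in another cluster. In M3 Hmgcs1 was at 422 CPM, Cyp51 at 419.6 CPM, Msmo1 at 388 CPM, Sqle at 168 CPM, Hsd17b7 at 164 CPM and Pmvk at 138 CPM. The regulator Insig1, which holds SREBP in the endoplasmic reticulum and is itself an SREBP target, was at 344 CPM and carried by 15 of 16 M3 cells. Srebf2, which encodes SREBP-2, was at 138 CPM and carried by all 16. M3 was also highest for 6 of 10 fatty acid enzymes: Fasn, the fatty acid synthase (497 CPM), Acly (363 CPM), the stearoyl-CoA desaturases Scd1 (335 CPM) and Scd2 (306 CPM), Elovl6, the elongase of palmitate (93.5 CPM), and Fads2, the delta-6 desaturase (89.9 CPM). Single M3 cells shape some of these levels, with 41.6 percent of the Acly counts and 38.04 percent of the Hmgcs1 counts in 1 cell each. The share of all genes highest in M3 is not given here, so the counts of 13 and 6 describe these lists only.

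Markers set M3 apart as well. All 6 cartilage markers were present with a sum of 86506 CPM, Col2a1 alone at 58347 CPM, and 5 of 6 osteoblast lineage markers summed to 3126 CPM with Alpl on top. Of the 15 hematopoietic markers only Lcp1 reached 10 CPM, and Coro1a, Fcer1g, Tyrobp, Cd52, Rac2 and Csf3r were at 0. None of 6 adipocyte markers reached 10 CPM, and Plin1, Cidec, Lep, Cfd and Retn were at 0. Of 10 cycling markers 5 reached 10 CPM, with a sum of 179 CPM. In M4, with 13 cells, the same 6 markers summed to 21402 CPM, Comp on top, and the sterol enzymes to 266 CPM. The part of the cartilage genes in the M3 levels was not tested.

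Set against M5, the cluster with most other OPr cells (65 cells, 29 of them OPr and 34 of them old, 8 with at least 7 hematopoietic markers, the 15 of which summed to 8120 CPM), 17 of 31 members were past 2-fold higher in M3 and 1 lower, where all 31 passed the filter on counts; over all genes 13.7 percent were past 2-fold higher and 36.3 percent lower. The median log2 ratio was 1.97 for sterol enzymes, 0.55 for fatty acid enzymes and -0.50 over all genes. With size factors by the median of ratios the all-gene median was -0.24 and the sterol median 2.65. Sqle went from 3.73 CPM in M5 to 168 CPM in M3 (log2 ratio 5.16), Hsd17b7 from 6.87 to 164 CPM (4.39) and Msmo1 from 56.6 to 388 CPM (2.75). Lss went from 13.7 to 98.0 CPM (2.75), Insig1 from 50.7 to 344 CPM (2.74) and Elovl6 from 11.9 to 93.5 CPM (2.88). Sterol enzymes moved further than fatty acid enzymes, and the steps with the largest ratios were squalene epoxidation (Sqle) and the 3-keto reduction that completes the loss of a C4 methyl group (Hsd17b7). The member that was lower was Acacb, the acetyl-CoA carboxylase of the mitochondrial surface (17.5 to 4.84 CPM, log2 ratio -1.66). All 18 stayed past 2-fold in the same direction under every alternative. The clusters differ in sort and age as well, since 15 of 16 M3 cells are young OPr. The others past 2-fold were Hmgcs1 (2.44), Pmvk (2.499), Idi1 (1.36), Fdps (1.44), Fdft1 (2.43), Cyp51 (1.97), Tm7sf2 (1.59), Sc5d (2.16), Acly (2.24), Fasn (1.66) and Scd2 (1.47).

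Young OPr against young MSC-S placed 15 members past 2-fold higher and 1 lower of 31 passing, with 19.3 and 17 percent over all genes. The sterol median was 0.89, the fatty acid median 0.90 and the all-gene median 0.00. Cyp51 went from 17.3 CPM in MSC-S to 234 CPM in OPr (log2 ratio 3.68), Msmo1 from 12.6 to 148 CPM (3.45) and Sqle from 7.93 to 73.9 CPM (3.07). Fads2 went from 14.5 to 78.9 CPM (2.36), Fasn from 73.5 to 294 CPM (1.98) and Scd2 from 61.5 to 203 CPM (1.71). Without the M3 cells the sterol median was -0.016 and Fdft1 (-0.46), Lss (-1.45) and Insig1 (-0.70) turned below MSC-S. Cyp51 stayed at 2.78, Sqle at 1.13, Fads2 at 2.19, Fasn at 1.30 and Scd2 at 1.29, the 5 members past 2-fold under every alternative. The setting without M3 was added after seeing the data, so the part of M3 in the sterol shift was not tested. Cyp51, Sqle and 3 fatty acid genes stay past 2-fold in the summed counts of the other 29 young OPr cells. For Sqle this rests on few cells: 22 of the 29 carried none of Fdft1, Sqle and Lss, and 52.9 percent of the counts of these genes were in 1 cell. Within library range 1 the sterol median was 0.15 and Hmgcs1 and Pmvk were below MSC-S, at -1.55 and -0.60. In old cells, where only 1 of 29 OPr cells is in M3, the OPr over MSC-S medians were 0.58 for sterol and -0.10 for fatty acid enzymes. The all-gene median of that comparison was 0.21. Mvk (-1.003), Hsd17b7 (1.55), Srebf1 (1.08), Acaca (1.17) and Elovl6 (1.62) also passed 2-fold in the main setting, though not in all others.

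Young mOPr against young OPr showed the reverse: 15 members past 2-fold lower in mOPr and 1 higher of 31 passing, with 20.3 and 17.5 percent over all genes. These young OPr cells are the same as above, so the comparisons are not independent. The sterol median was -0.85 and the fatty acid median -1.63. Fads2 went from 78.9 to 10.4 CPM (log2 ratio -2.82), Scd2 from 203 to 28.5 CPM (-2.79) and Scd1 from 191 to 43.2 CPM (-2.12), and each stayed past 2-fold under every alternative, as did Mvd (15.3 to 3.70 CPM, -1.80). Lss (38.6 to 2.61 CPM, -3.46) went to -0.51 and Sqle (-2.36) to -0.42 without M3, where the sterol median was 0.27. Hmgcs1 (0.25), Cyp51 (0.11) and Insig1 (0.080) turned direction within library range 1, where the sterol median was 0.035. Fads2, Scd1 and Scd2 were thus past 2-fold lower in mOPr with or without M3; Fads1, another desaturase, was not (-0.75, and -0.50 without M3). In old cells the mOPr over OPr medians were -0.11 and -0.06, beside -0.02 over all genes. Less stable ratios past 2-fold were those of Msmo1 (-1.97), Hsd17b7 (-1.59), Acly (-2.07), Acacb (-1.49), Fasn (-1.20), Elovl5 (1.15) and Elovl6 (-1.78).

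**Figure D3:**
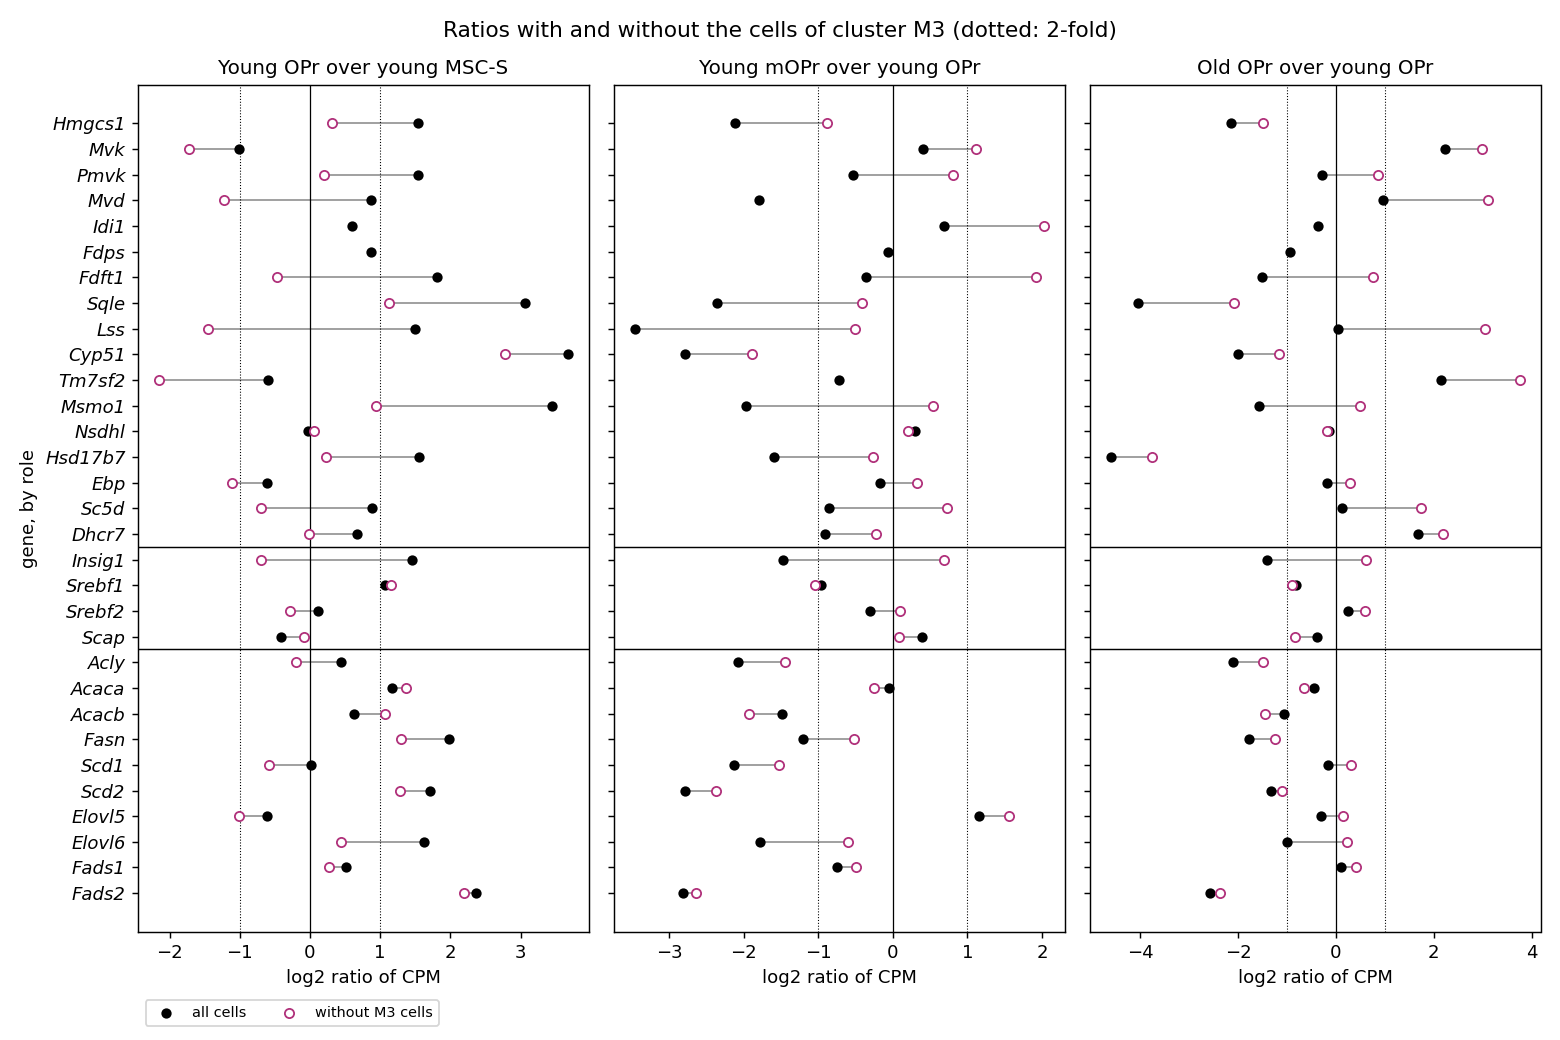
Log2 ratio of CPM (horizontal axes) of each of the 31 genes for 3 comparisons that involve OPr, with all cells (filled points) and without M3 cells (open points); dotted lines mark 2-fold. Without M3 most sterol enzymes move toward or past 0, with medians of -0.016, 0.27 and 0.77 from left to right, while Fads2 and Scd2 stay past 2-fold in each panel.

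In old OPr against young OPr, 13 members were past 2-fold lower and 3 higher of 31 passing, with 19.6 and 25.6 percent over all genes. The medians were -0.29 for sterol, -1.03 for fatty acid enzymes and 0.14 over all genes. Hsd17b7 went from 80.1 CPM in young to 2.34 CPM in old OPr (log2 ratio -4.60), Sqle from 73.9 to 3.51 CPM (-4.06), Fads2 from 78.9 to 12.4 CPM (-2.58) and Acly from 229 to 52.2 CPM (-2.11), while Mvk went from 19.7 to 95.4 CPM (2.22). These 5 were past 2-fold under every alternative. Fasn went from 294 to 85.0 CPM (-1.78) and Scd2 from 203 to 79.9 CPM (-1.33), and both stayed below 0 throughout. The sterol median itself has no fixed direction: it was 0.77 without M3 cells, 0.86 without M3 and hematopoietic-marker cells, and -1.62 within library range 2. Of the 16 members past 2-fold, 7 turned direction under an alternative, among them Fdft1 (0.77), Msmo1 (0.49) and Insig1 (0.62) without M3 and Hmgcs1 (0.24) within range 1. The fatty acid median kept its direction in all of them. M3 cells are 15 of 44 young and 1 of 29 old OPr cells. Of the 6 sterol enzymes past 2-fold lower, Sqle (-2.08), Hsd17b7 (-3.76), Cyp51 (-1.16) and Hmgcs1 (-1.49) stayed lower without these cells and Fdft1 and Msmo1 did not. Clusters M1 and M2 hold 3 of 44 young and 10 of 29 old OPr cells. The remaining members past 2-fold, none of them so under every alternative, were Tm7sf2 (2.15), Dhcr7 (1.67), Acacb (-1.06) and Elovl6 (-1.01).

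In the other populations the fatty acid median lay closer to 0 than in OPr, and the sterol median lay further from 0 in MSC-S, mOPr and SEC. In MSC-L 7 members were past 2-fold higher in old cells and 1 lower of 29 passing (13.9 and 11.5 percent over all genes), with medians of -0.01 for sterol, 0.34 for fatty acid enzymes and 0.01 over all genes. The sterol median has no fixed direction: over the alternatives it ran from -0.54 to 0.81 and kept its sign in 5 of 10, while the fatty acid median ran from -0.010 to 1.01. The count of 8 members past 2-fold was 14 with size factors, 16 in library range 1, 13 in range 2 and 13 without the highest cells. Mvd went from 0.921 to 38.3 CPM (log2 ratio 4.36), with 45.6 percent of the old counts in 1 of 58 cells. Srebf2 went from 16.8 to 77.3 CPM (2.13), carried by 14 of 53 young and 29 of 58 old cells, and Insig1 from 15.1 to 55.3 CPM (1.80). With them Elovl6 (5.57 to 26.1 CPM, 2.04) and Sc5d (23.6 to 69.4 CPM, 1.51) were past 2-fold under every alternative. Sqle (1.59) and Cyp51 (1.46) were not, with -2.71 and -0.66 in library range 1, nor was Dhcr7 (-1.58), the member that was lower.

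In MSC-S 4 members were past 2-fold higher in old cells and 0 lower of 31 passing, beside 8.65 and 11.1 percent over all genes, with medians of 0.34, 0.07 and -0.06. Fasn went from 73.5 to 184 CPM (log2 ratio 1.31), and the share of cells carrying it from 57.6 to 71.2 percent. Sqle went from 7.93 to 39.2 CPM (2.17), with 53.3 percent of the old counts in 1 of 59 cells, and Dhcr7 from 4.72 to 14.9 CPM (1.48). Cyp51 (17.3 to 38.2 CPM, 1.09) dropped under 2-fold in part of the alternatives. None of the 4 turned direction, and the count was 9 in library range 1 and 7 in range 2.

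In mOPr 5 members were past 2-fold higher and 4 lower of 28 passing (24.7 and 19.8 percent over all genes), with medians of 0.44, 0.21 and 0.11, the last of these -0.04 with median-of-ratios size factors. Lss went from 2.61 to 30.4 CPM (log2 ratio 3.12), Mvd from 3.70 to 34.1 CPM (2.90), Ebp from 38.3 to 97.1 CPM (1.32) and Elovl6 from 13.2 to 3.28 CPM (-1.73) under every alternative. Ebp was carried by 26.9 percent of young and 46.2 percent of old cells, whereas Lss and Mvd were carried by 3 of 26 old cells each. With 26 cells at each age and MSC-L markers over 10 times higher in the old cells, single genes here rest on few cells, and the shares past 2-fold do not exceed those over all genes. Clusters M1 and M2, which hold most MSC-L cells, hold 2 of 26 young and 14 of 26 old mOPr cells. Fads1, the delta-5 desaturase, went from 38.8 to 128 CPM (1.70) with -0.10 in library range 1. Not past 2-fold in each alternative, but so in the main setting, were Idi1 (-1.61), Fdft1 (-1.15), Scap (-2.06) and Scd2 (1.06).

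In AEC 8 members were past 2-fold higher and 3 lower of 31 passing, beside 9.33 and 11.7 percent over all genes, with medians of -0.10, 0.41 and -0.03. Sc5d went from 14.2 to 67.8 CPM (log2 ratio 2.18; 4.55, 1.70 and 3.08 in the 3 library ranges), and Mvk from 35.5 to 8.23 CPM (-1.98). Fasn (12.8 to 39.6 CPM, 1.55) and Scd1 (11.2 to 41.9 CPM, 1.82) were higher in old cells in all 3 ranges as well, though Fasn was at 0.48 in range 2. Elovl6 went from 0.918 to 16.1 CPM (3.15) and Nsdhl from 22.1 to 7.37 CPM (-1.46). None of the 11 turned direction. Hsd17b7 (1.22) was past 2-fold under every alternative that gave a value, as were the members above except Fasn and Scd1. For Hsd17b7 no library range gave a value, and its level in young AEC was 0.516 CPM, its lowest of all groups. Scd1 was at 0.93 at its lowest. Sqle (1.52), Lss (1.96), Cyp51 (-1.40) and Msmo1 (1.16) also passed 2-fold in the main setting, though not in all others.

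In SEC 10 members were past 2-fold higher and 1 lower of 28 passing, beside 13.1 and 7.56 percent over all genes, with medians of 0.66, 0.24 and 0.05. Sc5d went from 5.43 to 44.1 CPM (log2 ratio 2.81), Lss from 2.33 to 18.4 CPM (2.54) and Srebf2 from 29.9 to 69.6 CPM (1.19). Hsd17b7 (0.912 to 5.55 CPM, 1.78) and Dhcr7 (3.74 to 11.3 CPM, 1.38) were past 2-fold too in all alternatives in which they passed the filter. The clusters of the sort differ between ages: 59 of 70 young but 44 of 71 old SEC cells are in E7, with 2 young and 12 old cells in E6 and 0 young and 8 old cells in E3 and E4. For the deposited identity group, 61 young and 44 old cells, 6 of 25 passing members were past 2-fold and the sterol median was 0.82. Srebf1, which encodes SREBP-1, went from 34.7 to 90.7 CPM (1.36), with 0.99 for the deposited identity group, and Scd2 from 11.4 to 40.4 CPM (1.75), with 0.62. Scd1 had 11 counts in all old SEC cells. In SEC 11 of 15 passing sterol enzymes and all 4 regulators had ratios above 0. The lowest regulator ratio was 0.049, beside a median of 0.055 over all genes, so this regulator was close to unchanged. The old cells carried 7 of 15 hematopoietic markers with a sum of 461 CPM against 2 with 176 CPM in young cells. The part of these markers was not tested. Less stable ratios past 2-fold were those of Sqle (1.14), Msmo1 (1.18), Nsdhl (-1.82) and Fasn (1.06).

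Across populations 4 of the 31 members kept the same side in all 6, and the share of all genes that do so is not given here. Sc5d, Mvd and Lss were higher in old cells of every population, and Pmvk was lower in old cells of every population but never past 2-fold (21.1 to 13.8 CPM in MSC-L and 43.9 to 23.5 CPM in AEC, for example). Lss was close to equal in old and young OPr, with a log2 ratio of 0.05. Sc5d was at 23.6 and 69.4 CPM in young and old MSC-L, 31.1 and 40.5 CPM in MSC-S, 58.5 and 63.3 CPM in OPr, 32.02 and 52.7 CPM in mOPr, 14.2 and 67.8 CPM in AEC, and 5.43 and 44.1 CPM in SEC. It was past 2-fold in MSC-L and both endothelial sorts and close to equal in OPr. The share of cells carrying it went the same way only in part, from 18.9 to 34.5 percent in MSC-L and from 10.7 to 23.2 percent in AEC, but from 45.5 to 20.7 percent in OPr and from 23.1 to 15.4 percent in mOPr. Fasn, by contrast, was past 2-fold higher in old MSC-S, AEC and SEC and past 2-fold lower in old OPr. Under every alternative that gave a value, 3 members were past 2-fold in 3 populations each. These were Sc5d, Elovl6 (higher in old MSC-L and AEC, lower in old mOPr) and Hsd17b7 (lower in old OPr, higher in old AEC and SEC). For Hsd17b7 no library range gave a value in AEC or SEC, and young AEC was at only 0.516 CPM. Age ratios of single members thus differ by population.

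**Figure D4:**
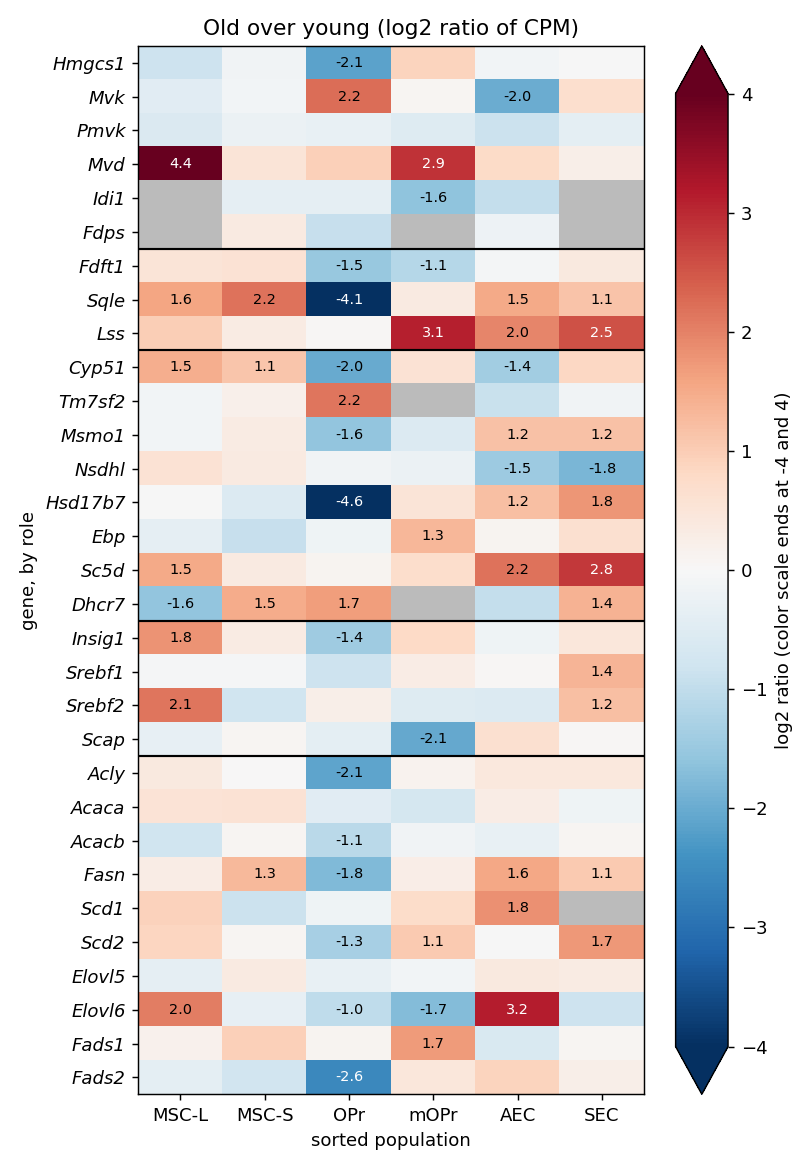
Log2 ratio of CPM, old over young, for the 31 genes (vertical axis, ordered by role) in the 6 sorted populations (horizontal axis); color gives the ratio, numbers mark ratios past 2-fold, and gray marks genes under the filter. Red cells dominate in SEC (10 of 28 past 2-fold higher) and blue cells in OPr (13 of 31 past 2-fold lower), and Sc5d reads 1.5, 2.2 and 2.8 in MSC-L, AEC and SEC.

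Some fatty acid enzymes differed between endothelial and mesenchymal groups. Acacb ran from 2.92 CPM in old MSC-L through a median of 12.5 CPM to 212 CPM in old SEC. It was at 199 CPM in young SEC, 122 CPM in young AEC and 99.7 CPM in old AEC, and at most 19.3 CPM in any mesenchymal group. Acaca, the carboxylase of the cytosol, was lowest in old SEC at 5.93 CPM and highest in old MSC-L at 60.3 CPM, with a median of 23.8 CPM over the groups. It was at 6.89 CPM in young SEC and 41.2 CPM in young MSC-L. Its endothelial and mesenchymal levels overlapped. Elovl5 was at 129 to 219 CPM in the 4 endothelial groups and at 25.96 to 72.7 CPM in the 8 mesenchymal ones. Fasn and Scd1 were higher in mesenchymal cells: Fasn was at 60.9 to 294 CPM there and at 9.35 to 39.6 CPM in endothelial groups, and Scd1 at 28.2 to 191 CPM against 0.531 to 41.9 CPM, ranges that overlap for Scd1 but not for Fasn. Of the 31 members, Acacb and Elovl5 (6.45 percent) lay higher in every endothelial group than in any mesenchymal group and Fasn (3.23 percent) lower. Over 19770 genes with at least 100 counts these shares were 5.86 and 2.41 percent. The members as a set were thus near the share of all genes, and no sterol enzyme was among them. Among members only Scd1 is a gene the authors used to guide a cluster, in the endothelial cells.

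Young MSC-L against young MSC-S gave 6 members past 2-fold higher and 7 lower of 29 passing (28.8 and 16.8 percent over all genes), with medians of 0.03, -0.28 and 0.32, the last of these 0.21 with median-of-ratios size factors. The sterol median has no fixed direction here, with -0.33 to 0.084 over the alternatives and the same sign in 3 of 9. Lower in MSC-L under every alternative were Scd1 (189.8 to 28.2 CPM, log2 ratio -2.71), Srebf2 (82.4 to 16.8 CPM, -2.23), Acly (169 to 37.1 CPM, -2.15), Insig1 (51.5 to 15.1 CPM, -1.70), Lss (-2.20) and Mvd (-2.22). Higher were Acaca (16.4 to 41.2 CPM, 1.28) and Hsd17b7 (26.7 to 64.4 CPM, 1.24). In old cells Acly (-1.78), Lss (-1.55), Acaca (1.23) and Hsd17b7 (1.79) were among those that kept these sides past 2-fold, while Mvd stood at 1.60. The medians in old cells were -0.11 for sterol and -0.13 for fatty acid enzymes, beside 0.37 over all genes, with 5 members past 2-fold higher and 7 lower of 30 passing. Over all genes 4494 were past 2-fold higher and 2219 lower of 13707 passing. The remaining members past 2-fold, none of them so under every alternative, were Msmo1 (1.36), Dhcr7 (1.24), Elovl6 (-1.27), Fads1 (1.45) and Fads2 (1.55).

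Young AEC against young SEC gave 7 members past 2-fold higher and 1 lower of 29 passing (20.4 and 16.1 percent over all genes), with medians of 0.54, 0.22 and 0.06. Within library range 3, the only range with SEC cells, the sterol median was -0.12. Elovl6 was the member lower in AEC, at 0.918 CPM against 24.4 CPM (log2 ratio -3.73). Cyp51 (4.83 to 19.02 CPM, 1.78), Insig1 (15.8 to 50.6 CPM, 1.62), Idi1 (0.775 to 3.96 CPM, 1.48) and Srebf2 (29.9 to 63.1 CPM, 1.05) were past 2-fold higher under every alternative that gave a value, which for Idi1 leaves out library range 3. Scd2 (11.4 to 78.1 CPM, 2.68) was at 0.56 within range 3. Old cells had a sterol median of -0.26, beside -0.04 over all genes, and Elovl6 at 16.1 CPM in AEC and 13.3 CPM in SEC no longer differed past 2-fold. Not past 2-fold in each alternative, but so in the main setting, were Sc5d (1.24) and Scd1 (1.28).

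Cluster E7, with 105 endothelial cells and all 6 sinusoidal markers at a sum of 19980.1 CPM (top gene Stab2), was set against E3 and E4, which hold mostly AEC cells. In E7 2 members were past 2-fold higher and 7 lower of 31 passing, beside 16.0 and 19.6 percent over all genes, with medians of -0.47, -0.24 and -0.05. Scd1 had 4 counts in E7, 0.127 CPM, against 32.3 CPM (log2 ratio -4.88). Cyp51 went from 16.99 to 1.81 CPM (-2.68), Scd2 from 95.7 to 15.5 CPM (-2.55), Insig1 from 55.8 to 10.7 CPM (-2.27) and Fasn from 24.3 to 4.29 CPM (-2.26). Higher in E7 were Elovl6 (9.99 to 24.4 CPM, 1.21) and Fads1 (46.8 to 106 CPM, 1.16). Relative to E3 and E4, E7 cells held little Fasn, Scd1 and Scd2 mRNA. Scd1 is a gene the authors used to guide a cluster of the endothelial cells, so its contrast is not independent of the clusters. The count of 9 members was 14 of 28 in library range 3, the only range with SEC cells, and 15 of 31 without the highest cells. Within library range 3 the sterol median was 0.49, while Scd1, Cyp51, Scd2, Insig1 and Fasn stayed past 2-fold lower. Dhcr7 (-1.24) was past 2-fold under every alternative, as were the members above except Fads1, which was at 0.96 at its lowest. Sqle (-1.40) also passed 2-fold in the main setting, though not in all others.

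Clusters M1 and M2, which hold most MSC-L cells, gave 3 members past 2-fold higher in M2 and 2 lower of 29 passing, beside 13.4 and 16.1 percent over all genes, with medians of 0.56, -0.06 and -0.00. Nsdhl went from 27.9 CPM in M1 to 1.79 CPM in M2 (log2 ratio -3.37) and Acacb from 4.40 to 0.597 CPM (-1.76) under every alternative. Cyp51 (20.7 to 80.8 CPM, 1.92) was at 0.24 in library range 1. The count of 5 depends on the setting: it was 8 with mean CPM, 9 thinned, 10 with size factors and 16 in range 1. Less stable ratios past 2-fold were those of Tm7sf2 (2.24) and Ebp (1.09).

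The other genes of the pathways help to place these values. A list of 13 genes, called sterol handling here, holds sterol carriers and receptors, but also Acss2, which makes acetyl-CoA, and Insig2, an Insig protein. Of these 13, 3 were past 2-fold higher and 4, Acss2 among them, lower in M3 than in M5. Stard4, a sterol carrier that is itself an SREBP target, went from 14.5 to 123 CPM (log2 ratio 3.01) and Scarb1, the HDL receptor, from 44.01 to 223 CPM (2.31), while Lipa, the lysosomal lipase, went from 74.7 to 2.51 CPM (-4.43). The fatty acid use list holds 24 genes, those of uptake, storage and oxidation and also Pparg, Cebpa, Mlxipl and Thrsp. Of these, 1 (Mlxipl, 1.41) was past 2-fold higher and 15 lower of 23 passing, beside 13.7 and 36.3 percent over all genes. Lpl, which frees fatty acids from lipoproteins, went from 195 to 0.465 CPM (-7.06) and Dgat1, which closes triglycerides, from 447 to 12.4 CPM (-5.06). Cpt1a, the gate of mitochondrial oxidation, was at 54.1 CPM in M5 and had no count in M3. Relative to M5 the fatty acid use list was thus low in M3, while sterol handling genes went both ways, with Soat1, which esterifies cholesterol, also higher (19.8 to 48.6 CPM, 1.25); M5 holds the hematopoietic-marker cells, whose part was not tested.

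In young MSC-L against young MSC-S, 9 of 22 passing fatty acid use genes were past 2-fold higher and 1 lower, beside 28.8 and 16.8 percent over all genes. Lpl went from 127 to 1866 CPM (log2 ratio 3.86), Pparg, the adipocyte transcription factor, from 7.18 to 105 CPM (3.70), and Cebpa, its partner, from 20.7 to 177 CPM (3.03), with Soat1 from 69.02 to 403 CPM (2.53). Old mOPr over young mOPr repeated part of it, with Lpl from 40.9 to 670 CPM (4.00) and Pparg from 0.0686 CPM (1 count) to 17.6 CPM (4.12), alongside the MSC-L markers given above. In E7 over E3 and E4, 6 of 23 passing fatty acid use genes were past 2-fold higher and 2 lower, beside 16.0 and 19.6 percent over all genes, with a median of 0.03. Higher were, among others, Thrsp, a lipogenic nuclear protein, from 37.7 to 593 CPM (3.94), Fabp4, the fatty acid binding protein of capillaries, from 1881 to 8098 CPM (2.11) and Pparg from 75.2 to 407 CPM (2.42); lower were Acsl1 (-1.01) and Fabp5 (-1.004). Of 13 sterol handling genes 3 were past 2-fold higher and 2 lower, with a median of -0.23. Mylip, an LXR-induced ubiquitin ligase, went from 72.4 to 527 CPM (2.85) and Nr1h3, the LXR-alpha gene, from 5.21 to 38.3 CPM (2.66), while Lipa (-1.64) and Stard4 (-1.38) were lower. Members of both lists thus went to both sides in E7.

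By age, 0 sterol handling genes were past 2-fold higher and 1 lower of 13 passing in AEC, and 0 and 3 of 23 passing fatty acid use genes, beside 9.33 and 11.7 percent over all genes. In MSC-L they were 3 and 3 of 12 and 2 and 2 of 21 (13.9 and 11.5 percent), in MSC-S 2 and 1 of 13 and 1 and 4 of 22 (8.65 and 11.1 percent), and in SEC 2 and 0 of 13 and 1 and 3 of 23 (13.1 and 7.56 percent). In OPr they were 5 and 2 of 13 and 11 and 3 of 22, beside 25.6 and 19.6 percent over all genes, among them Dgat1 (44.2 to 636 CPM, log2 ratio 3.82) and Lipa (6.38 to 92.7 CPM, 3.67). In mOPr they were 3 and 5 of 12 and 8 and 3 of 20, beside 24.7 and 19.8 percent over all genes. Stard4 went from 1.18 to 19.9 CPM (3.26) in MSC-L, where Mylip was lower in old cells (-2.38), and from 64.6 to 7.86 CPM (-2.89) in OPr. Old SEC had Acss2, which makes acetyl-CoA from acetate, at 25.1 CPM against 2.10 CPM in young SEC (3.07).

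Cells within a group differ widely. The sterol sum was at or above 1000 CPM in 41 of 661 cells, 12 of them in M3, 7 each in M1 and M5 and 5 in M2. In young OPr it ran from 0 through a median of 390.4 CPM to 6271 CPM, and outside M3 from 0 through 162 CPM to 4173 CPM. The cells of a group may share mice and plates, so these values describe the cells at hand.

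Promoter sequence, which played no part in the choice, was searched from 250 bases before to 50 after each start on both strands. RefSeq promoters matched 14 of 17 sterol enzymes, 4 of 4 regulators and 7 of 10 fatty acid enzymes, without entries for Fdps, Fdft1, Sqle, Scd1, Scd2 and Fads1. CCAAT occurred in 14 of 17 promoters of sterol enzymes (82.35 percent), in 4 of 7 of regulators and in 4 of 7 of fatty acid enzymes (57.14 percent each), against 37.41 percent of all 32851 promoters. GGGCGG occurred in 14 of 17, 6 of 7 and 2 of 7 (82.35, 85.71 and 28.57 percent), against 35.66 percent of all. The sterol element core TCACNCCAC occurred only in Hmgcs1, and in 408 or 1.242 percent of all promoters. A match describes letters and shows no binding, and a missing match says only that these letters are not in the window.

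For the 4 sterol enzymes with the highest levels in M3 among those with a promoter entry, the 150 bases before the start are given to show how these motifs sit, in build GRCm38.p6 and on the gene's strand, 5′ to 3′; the choice was made after the levels were seen. They are chr13:119690201-119690350 on the plus strand for Hmgcs1, and chr5:4104698-4104847, chr8:64733579-64733728 and chr1:169969206-169969355 on the minus strand for Cyp51, Msmo1 and Hsd17b7. Capitals mark TCACNCCAC, CCAAT and GGGCGG on either strand. Hmgcs1 holds 1, 1 and 2 of these, Cyp51 0, 1 and 1, Msmo1 0, 2 and 2, and Hsd17b7 0, 2 and 1. The start is that of the RefSeq promoter entry: by the gene annotation the Msmo1 stretch lies wholly within the gene and those of Cyp51 and Hsd17b7 in part.
Hmgcs1: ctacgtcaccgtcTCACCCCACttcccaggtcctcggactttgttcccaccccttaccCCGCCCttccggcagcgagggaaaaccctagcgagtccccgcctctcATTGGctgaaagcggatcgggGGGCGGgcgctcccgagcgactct
Cyp51: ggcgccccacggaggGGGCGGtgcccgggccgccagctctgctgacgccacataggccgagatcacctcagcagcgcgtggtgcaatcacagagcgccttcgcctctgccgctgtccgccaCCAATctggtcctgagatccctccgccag
Msmo1: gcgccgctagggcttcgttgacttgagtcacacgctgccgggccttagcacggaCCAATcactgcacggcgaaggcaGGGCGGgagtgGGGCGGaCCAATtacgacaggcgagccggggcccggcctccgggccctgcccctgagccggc
Hsd17b7: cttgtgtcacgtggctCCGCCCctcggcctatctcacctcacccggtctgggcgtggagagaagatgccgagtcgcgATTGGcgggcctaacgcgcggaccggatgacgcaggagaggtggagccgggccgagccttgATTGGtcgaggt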

How the data were processed

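Plate-based libraries of 661 sorted cells were used in 12 groups of population and age, with 1 summed sample per group. The authors deposited a raw count of reads per gene and cell; per the submitters' processing notes reads were mapped with GSNAP (version 2015-09-29) to GRCm38.p4 and counted with HTSeq. The table held 46078 entries, of which 270 repeated a symbol and were summed, leaving 45771 nuclear and 37 mitochondrial genes; 0 columns were unmapped. Total counts ran from 58034 to 1503374 per cell, and 3 counts in a group equal between 0.0766 and 0.240 CPM; levels below this rest on fewer counts.

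Nuclear counts were summed by group and scaled to CPM with Python 3.11.15, NumPy 2.4.6, pandas 2.3.3 and SciPy 1.17.1. Ratios are log2 of CPM with a pseudocount of 1 CPM, for genes with at least 100 counts over both groups in at least 5 cells, and count from an absolute log2 of 1. Intervals at 95 percent are exact (Poisson for levels, binomial for ratios). A cell carries a gene from 10 CPM. Labels name no mouse, so no test was run. In 13 comparisons each list is given by its counts and median beside all genes. All 31 members were followed; members past 2-fold are named. The rule also held the ends of each list and genes of a sterol handling and a fatty acid use list past 2-fold, which are given in part. Members and lists were chosen with earlier results of these data known.

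Beside the main setting, 12 planned settings were tried. These were thinning to 100000 counts, mean CPM over cells, a pseudocount of 0.1 CPM, median-of-ratios size factors, no filter and a 1000-count filter. Others were each of 3 library-number ranges and the deposited identity group. The rest left out cells with at least 7 of 15 hematopoietic markers, or each gene's highest cell. Leaving out M3 cells, alone or with the hematopoietic-marker cells, was added after seeing the data. Code was tested on simulated data. Promoters (GRCm38.p6) came from RefSeq, and gene lengths and shared stretches of 50 bases from mouse transcripts. Spike-in counts were not analysed here.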

Additional observations from a re-analysis of the deposited data

Results flagged for a closer look

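Differences between populations were picked out where the age ratio of a member was past 2-fold, held its direction under every alternative and in at least 2 library-number ranges, and the same was so with the opposite sign in another population. On the log2 scale Mvk stood at 2.22 in OPr and -1.98 in AEC. Sqle stood at 2.17 in MSC-S and -4.06 in OPr. Cyp51 stood at 1.09 in MSC-S, -2.00 in OPr and -1.40 in AEC. Fasn stood at 1.31 in MSC-S, -1.78 in OPr and 1.55 in AEC. Scd2 stood at -1.33 in OPr and 1.06 in mOPr. These differences were not tested, since each population and age is 1 sample.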

How the results depend on the processing

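No paired analysis was possible because the labels name no mouse and the numbers in the titles only count cells. Of 144 member ratios past 2-fold, 117 kept their direction under every alternative that gave a value and 76 stayed past 2-fold. Over all alternatives 661 of 1326 member ratios stayed within the counting interval, 632 moved beyond it and 33 turned direction; 113 of 125 sterol medians and 124 of 125 fatty acid medians stayed within the 95 percent order-statistic interval of the main median, and 106 of 125 counts of members past 2-fold moved by at most 1.5 times. These intervals are wide: 21 sterol and 3 fatty acid medians took the other sign, among them those for old over young MSC-L (5 of 10 sterol medians) and young MSC-L over MSC-S (6 of 9). Alternatives without M3 cells were chosen after seeing the data. A stricter filter and smaller sets of cells test fewer genes; otherwise the cause of a change was not tested. Ranges hold few cells of a group, and depth limits genes near 1 CPM.

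Medians that moved were, in library range 1, sterol -0.54 and fatty acid 1.01 for old over young MSC-L, sterol 0.15 for young OPr over MSC-S and 0.035 for young mOPr over OPr; in range 2, sterol -1.62 for old over young OPr; in range 3, sterol -0.12 for young AEC over SEC and 0.49 for E7. Without M3 the sterol median was 0.77 for old over young OPr, -0.016 for OPr over MSC-S and 0.27 for mOPr over OPr, and 0.86 for old over young OPr without M3 and hematopoietic-marker cells. For M3 over M5 it was 2.65 with size factors and 2.56 without the highest cells.

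Ratios that turned direction in range 1 were Sqle -2.71 and Cyp51 -0.66 (MSC-L age), Hmgcs1 0.24 and Msmo1 0.37 (OPr age), Fads1 -0.10 (mOPr age), Msmo1 -1.69 and Fads1 -0.68 (MSC-L over MSC-S), Hmgcs1 -1.55 and Pmvk -0.60 (OPr over MSC-S), and Hmgcs1 0.25, Cyp51 0.11 and Insig1 0.080 (mOPr over OPr). In range 2 they were Tm7sf2 -0.92 and Acacb 1.46 (OPr age), Elovl6 0.53 (MSC-L over MSC-S), Acacb 1.21 and Elovl5 -0.20 (mOPr over OPr) and Tm7sf2 -0.44 (M2 over M1), and in range 3 Sc5d -0.23 (AEC over SEC). Without the highest cell Fads2 was at -0.049 (MSC-L over MSC-S). Without M3 they were Fdft1 0.77, Msmo1 0.49, Insig1 0.62 and Elovl6 0.22 (OPr age), Fdft1 -0.46, Lss -1.45 and Insig1 -0.70 (OPr over MSC-S), and Msmo1 0.54 and Insig1 0.69 (mOPr over OPr). Without M3 and hematopoietic-marker cells they were Fdft1 1.17, Msmo1 0.91, Insig1 1.00 and Elovl6 0.12 (OPr age).

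Counts of members past 2-fold that moved by over 1.5 times were, for MSC-L age (8), 14 with size factors, 5 with the 1000-count filter, 16 in range 1, 13 in range 2 and 13 without the highest cell; for MSC-S age (4), 9 in range 1 and 7 in range 2; for mOPr age (9) 3, AEC age (11) 6, SEC age (11) 4 and AEC over SEC (8) 3 with the 1000-count filter; for SEC age 6 in the identity group. For M2 over M1 (5) they were 8 with mean CPM, 10 with size factors, 9 thinned, 3 with the 1000-count filter and 16 in range 1, and for E7 (9) 14 in range 3 and 15 without the highest cell.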
